A study of Mus musculus with 9 samples.

Results

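The unfolded protein response and the folding machinery of the endoplasmic reticulum (ER) were followed through 38 genes in regulatory T cells (Tregs) from mouse spleen. The genes are those of a list of stress sensors, chaperones, disulfide enzymes, degradation factors and translocation or transport factors, taken by symbol from 23393 usable rows of the count files. All 38 were matched and all 38 passed the filter on low counts. Membership goes by symbol and uses no measured value, although the list was drawn up with earlier results of these data known.

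RNA was sequenced from Tregs, CD4 T cells marked by Foxp3 that hold immune responses in check, in 3 groups of 3 samples. The ST2KO group carries the genotype ST2KO, the ST2-high group is labelled wild type with high ST2 and the ST2-low group wild type with low ST2, where ST2 is the interleukin-33 receptor encoded by Il1rl1. The series concerns kidney inflammation and fibrosis after ischemic injury. The sources used here do not give strain, age, allele, any treatment, how ST2 was sorted, or whether replicates were separate animals. P-values therefore measure only the spread among these libraries, and that spread may be technical. All 3 groups share the tissue and the cell type label.

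The ER folds proteins that a cell secretes or places on its surface. When unfolded protein builds up, the chaperone BiP (Hspa5) leaves the lumenal parts of the membrane sensors IRE1-alpha (Ern1), PERK (Eif2ak3) and ATF6, which start the unfolded protein response. IRE1-alpha cuts a short intron out of Xbp1 mRNA, PERK slows translation, and ATF6 is cut in the Golgi to release a transcription factor. The targets of these factors include chaperones, disulfide enzymes, translocation factors and the machinery of ER-associated degradation (ERAD), and the response is best known in lymphocytes from the differentiation of plasma cells.

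The stretch of Xbp1 that IRE1-alpha cuts is shown because Ern1 and Xbp1 gave some of the largest differences among the members. It lies in exon 4 of the transcript Xbp1-201 at chr11:5524261-5524322, plus strand, of GRCm38 (GENCODE M21), within the coding sequence, and capitals mark the 26 bases that are removed.
Xbp1: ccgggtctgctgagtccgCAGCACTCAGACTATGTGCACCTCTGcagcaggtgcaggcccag
Removing these bases lengthens the reading frame from 267 to 371 codons. Counts per gene do not separate the cut from the uncut form, so every Xbp1 value below is the total of both.

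The ER stress response element (ERSE: CCAAT and CCACG with 9 bases of any kind between them) is a well known promoter motif of these genes, and short windows with it are shown because most members were lower in ST2KO. RefSeq promoters (GRCm38.p6, 250 bases before to 50 after each start) were matched for 32 of the 38 members. ERSE was found on either strand in 10 of these 32 (31.2%) and in 0.137% of the 27025 genes of the table. The related ERSE-II (ATTGG and CCACG with 1 base of any kind between them), which shares its CCACG end with ERSE, was in 2 members (6.25%), against 0.0444% of all genes. A core of the unfolded protein response element (TGACGTGG) was in 1 member, Sec24d, and in 0.714% of all genes. The list was assembled from known pathway genes, so these shares describe the list. Capitals mark the motif in the gene's own direction, with 5 bases on either side.
Hspa5 (chr2:34772020-34772048, plus strand): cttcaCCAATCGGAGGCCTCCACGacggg
Calr (chr8:84847070-84847098, minus strand): caacgCGTGGTCGACCCTCATTGGcccat
Hsp90b1 (chr10:86705528-86705556, minus strand): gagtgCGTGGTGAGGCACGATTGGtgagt
Syvn1 (chr19:6046527-6046555, plus strand): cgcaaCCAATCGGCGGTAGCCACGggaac
Ero1lb (chr13:12565677-12565705, plus strand): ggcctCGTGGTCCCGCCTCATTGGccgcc
Derl3 (chr10:75893237-75893265, plus strand): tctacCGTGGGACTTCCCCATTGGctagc
Dnajc3 (chr14:118937822-118937850, plus strand): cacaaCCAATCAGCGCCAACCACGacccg
Creld2 (chr15:88819515-88819543, plus strand): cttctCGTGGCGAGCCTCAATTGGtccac
Herpud1 (chr8:94386372-94386392, plus strand): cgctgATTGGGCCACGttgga
In the windows shown for Calr, Hsp90b1, Ero1lb, Derl3 and Creld2 the motif lies on the other strand and reads in reverse complement, and Herpud1 has ERSE-II. Hsp90b1 held a second ERSE, and Canx and Pdia6 held 1 each. In Dnajb11 the ERSE-II lies after the start.

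Total counts ranged from 11659659 to 43406680 in ST2KO, from 16223242 to 29320699 in ST2-high and from 19084575 to 20098456 in ST2-low. Levels are CPM, counts scaled to library size, with TMM factors, a scaling against differences in library makeup. Il1rl1 stood between 57.7 and 83.6 CPM in ST2KO, between 420.7 and 547.3 CPM in ST2-high and between 2.11 and 3.59 CPM in ST2-low. Since a gene's count does not tell its exons apart, the Il1rl1 level leaves the genotype unchecked, and ST2KO is used here as a label. The Treg markers Foxp3 and Cd4 were present in every library, at 410.2 CPM or more and 407.6 CPM or more. The 6 Treg-defining genes summed to 3675 to 3802 CPM in ST2KO, 5248 to 5538 CPM in ST2-high and 4621 to 4762 CPM in ST2-low. The largest difference among them was in Ctla4, an inhibitory receptor gene, which averaged 786.3 CPM in ST2KO, 2123 CPM in ST2-high and 1996 CPM in ST2-low. Against ST2-low, Il2ra and Ikzf2 were higher in ST2KO by 1.24-fold and 1.17-fold, and Foxp3, Cd4 and Cd3e did not pass. Against ST2-high, Il2ra was 1.11-fold higher, Foxp3 and Ikzf2 were 1.32-fold and 1.16-fold lower, and Cd4 and Cd3e did not pass. ST2-high replicate 3 stood apart from its group, with a chi-square per gene of 16.5 and 19.9 against its replicates, where every other pair within a group lay between 4.46 and 8.22. This measure takes in the ribosomal RNA row Rn45s, which held 16.69% of counts in that library and 12.98% and 12.11% in ST2-high replicates 1 and 2. The part of that row in the chi-square was not tested.

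Markers of other spleen cells are set out first, because plasma cells use the same pathway and many of these markers were lower in ST2KO. Of 12 listed plasma cell symbols 7 were matched, and none was at 0 in a whole group. Their summed level lay between 76.7 and 90.02 CPM in ST2KO, between 96.8 and 143.7 CPM in ST2-high and between 99.9 and 155.6 CPM in ST2-low. Of the 6 tested, 4 were lower and 0 higher in ST2KO against either wild-type group, among them the plasma cell marker Mzb1 with 2.58, 1.87 and 3.11 CPM in ST2KO, 6.77, 8.52 and 3.82 CPM in ST2-high and 7.24, 4.52 and 7.69 CPM in ST2-low. The receptor gene Tnfrsf17 was below 0.5 CPM in every library and at 0 in ST2-low replicate 1. All 10 B cell markers were matched and none was at 0 in a whole group, with sums from 97.96 to 128.2 CPM in ST2KO, from 124.7 to 160.2 CPM in ST2-high and from 108.7 to 169.6 CPM in ST2-low. Of these 10, 6 were lower in ST2KO than in ST2-high and 5 lower than in ST2-low, with 0 higher. Of 15 myeloid and dendritic symbols 14 were matched, again with none at 0 in a whole group, and their sums were 36.6 to 54.3 CPM in ST2KO, 135.6 to 142.9 CPM in ST2-high and 159.3 to 210.8 CPM in ST2-low. Of the 13 tested, 12 were lower in ST2KO against either wild-type group, and 5 were lower in ST2-high than in ST2-low. The 6 CD8 T cell and natural killer cell markers summed to 23.6 to 30.2 CPM in ST2KO, 25.7 to 28.2 CPM in ST2-high and 32.2 to 33.4 CPM in ST2-low. In ST2KO 1 of these was lower than in ST2-low and 0 than in ST2-high, and 1 was lower in ST2-high than in ST2-low, with 0 higher. For all genes tested, the share lower was 29.3% in ST2KO against ST2-low, 32.6% in ST2KO against ST2-high and 10.8% in ST2-high against ST2-low. The part of these other spleen cells in the differences below was not tested. In such bulk samples fewer cells of a type and less RNA per cell cannot be told apart.

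Levels of the members per length of exon covered a wide range. Hspa5 and the lectin chaperone calreticulin (Calr) led, with group means of 162.7 and 134.9 CPM per kb of merged exons in ST2KO, 261.5 and 212.9 in ST2-high and 270.1 and 218.2 in ST2-low. Derl3, a derlin of ERAD, was the lowest in every group, at 0.455 CPM per kb in ST2KO, 1.16 in ST2-high and 1.08 in ST2-low. Xbp1 had 22.7 CPM per kb in ST2KO, 64.2 in ST2-high and 73.3 in ST2-low, above every stress sensor gene in each group. The mannose-recognising ERAD factor Edem1 stood at 68.5 CPM per kb in ST2KO, 66.1 in ST2-high and 67.1 in ST2-low, above Xbp1 in ST2KO and ST2-high and below it in ST2-low. The summed level of all 38 members was 4062, 4006 and 4250 CPM in ST2KO, 5480, 5612 and 5172 CPM in ST2-high and 5559, 5380 and 5356 CPM in ST2-low, with every ST2KO sample below every wild-type sample.

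**Figure D1:**
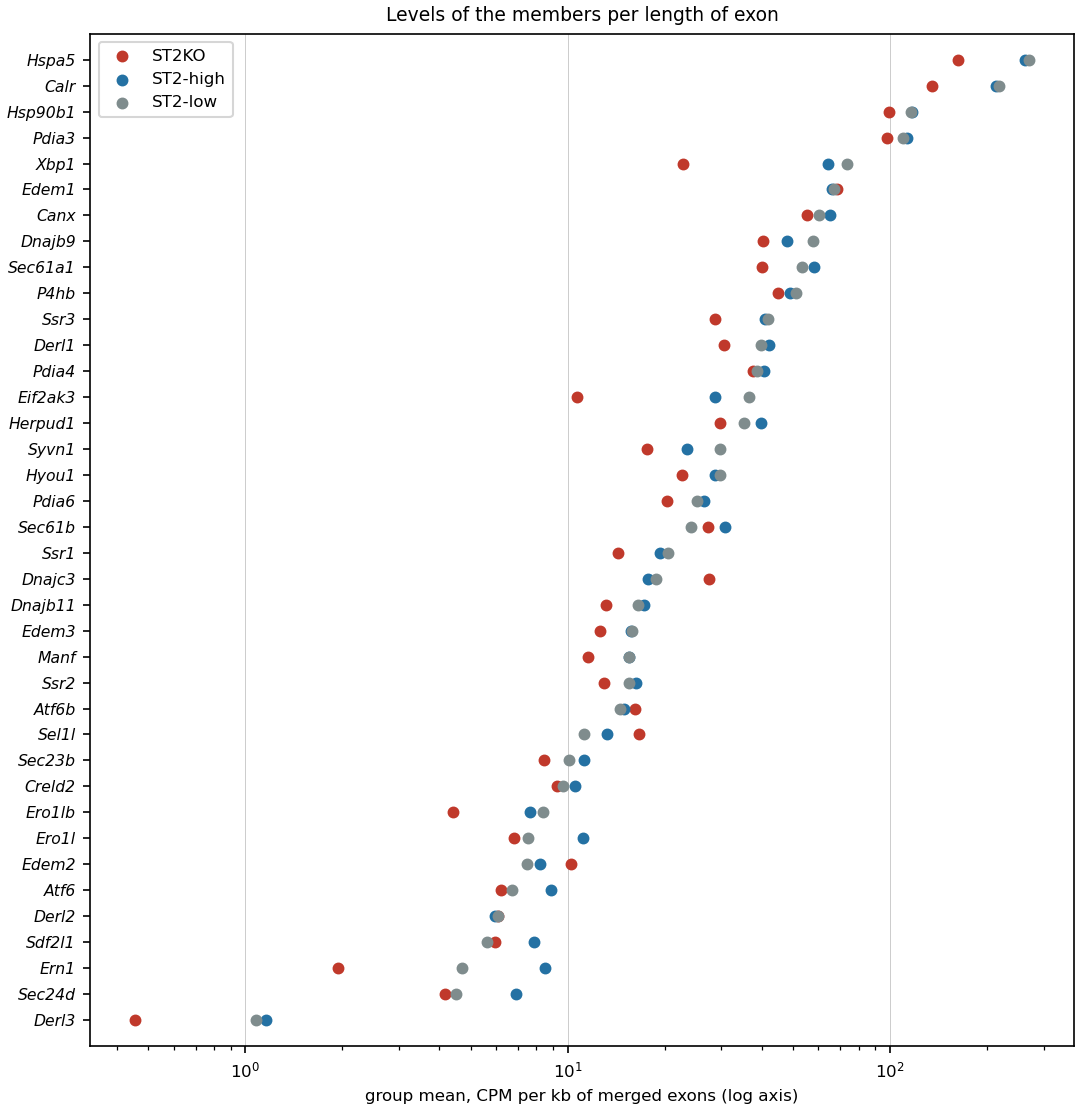
Group mean of each member in CPM per kb of merged exons, on a log axis, for ST2KO (red), ST2-high (blue) and ST2-low (grey), ordered by the ST2-low level. Hspa5 leads at 162.7 in ST2KO and 270.1 in ST2-low, and the red points of Xbp1, Eif2ak3, Ern1 and Derl3 lie to the left of the blue and grey points of the same row.

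Set against ST2-low, the wild-type Tregs with the least Il1rl1, most members were lower in ST2KO, led by the PERK gene Eif2ak3, Xbp1 and the IRE1-alpha gene Ern1. Of the 38, 25 fell (65.8%), 3 rose (7.89%) and 10 did not pass, where 29.3% of all 12219 genes tested fell and 33% rose. The test was edgeR's quasi-likelihood F-test, with p-values adjusted by Benjamini and Hochberg's method across those genes and called under 0.05. In either direction 73.7% of the members passed, against 62.3% of all genes. With upper-quartile scaling 21 members fell and 5 rose, where 3124 of all 12219 genes fell and 4648 rose. The median log2 fold change was -0.26 over the members and 0.05 over all genes. Without overlap between the groups, 26 of the 38 members were lower and 3 of the 38 higher, against 31.2% and 36% of all genes. By 2-fold or more, 4 of the 38 members fell (Eif2ak3, Xbp1, Ern1 and Derl3), where 811 of 12219 genes did (6.64%). At that size 0 members rose, where 6.86% of all genes did.

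The largest falls of any member were in the sensor genes Eif2ak3 and Ern1 and in Xbp1, while the sensor genes Atf6 and Atf6b did not pass. Eif2ak3, the kinase PERK, had 50.2, 51.8 and 53.8 CPM in ST2KO, against 187.1, 174.6 and 170.1 CPM in ST2-low. All ST2KO samples lay below all ST2-low samples, a 3.43-fold difference (log2 fold change -1.78 ± 0.06, SE; edgeR adjusted p = 1.27e-21). Xbp1, the factor made active by IRE1-alpha, had 59.5, 61.0 and 62.9 CPM in ST2KO, against 201.3, 197.0 and 192.8 CPM in ST2-low. The ST2KO values were within 4 CPM of each other and 3.23-fold lower (log2 fold change -1.69 ± 0.05; edgeR adjusted p = 8.83e-22). Ern1, which encodes IRE1-alpha itself, had 14.4, 16.0 and 17.3 CPM in ST2KO, against 34.5, 40.4 and 40.3 CPM in ST2-low. The groups did not overlap, and Ern1 was 2.46-fold lower (log2 fold change -1.30 ± 0.10; edgeR adjusted p = 2.41e-12). Atf6 did not pass, at 43.8, 46.4 and 44.8 CPM in ST2KO, against 47.2, 49.2 and 50.2 CPM in ST2-low (edgeR adjusted p = 0.104), with a small gap between the groups. In 4 of 18 alternatives it was called lower (adjusted p 0.0303 to 0.51 over all of them). Its close relative Atf6b did not pass either, at 41.5 ± 1.08 CPM in ST2KO and 37.3 ± 2.92 CPM in ST2-low (SD, n = 3 each; edgeR adjusted p = 0.0613). In 3 of 18 alternatives Atf6b was called higher (adjusted p 0.00772 to 0.374 by edgeR, limma or DESeq2).

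**Figure D2:**
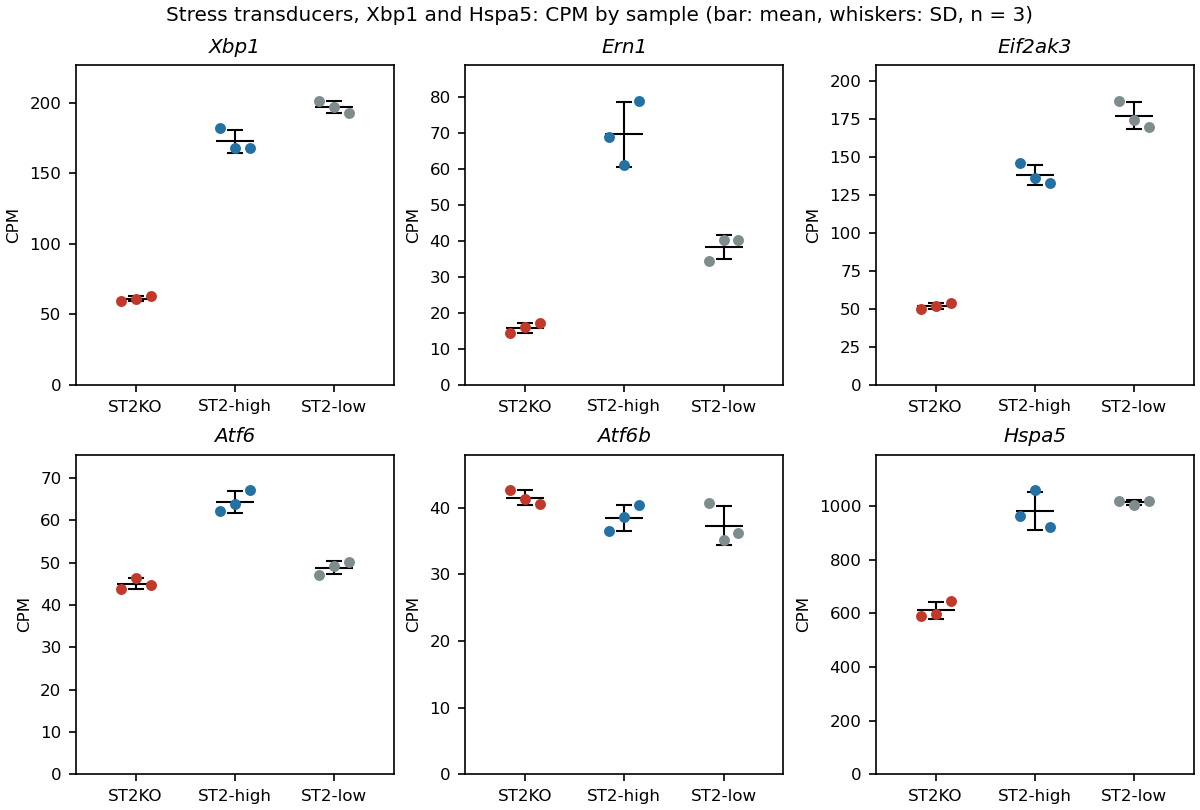
CPM of Xbp1, Ern1, Eif2ak3, Atf6, Atf6b and Hspa5 in each sample, with the mean as a bar and the SD as whiskers (n = 3), in ST2KO, ST2-high and ST2-low. Xbp1, Ern1, Eif2ak3 and Hspa5 are lowest in the 3 ST2KO samples, while Ern1 and Atf6 are highest in ST2-high.

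Among 11 chaperones, lectins and co-chaperones, 8 fell, 1 rose and 2 did not pass. Hspa5, the Hsp70 chaperone of the ER, had 589.2, 595.9 and 647.1 CPM in ST2KO, against 1020, 1005 and 1018 CPM in ST2-low. The highest ST2KO value stayed well below the lowest ST2-low value, and Hspa5 was 1.66-fold lower (log2 fold change -0.73 ± 0.06; edgeR adjusted p = 8.95e-13). Calr had 291.2, 287.9 and 304.8 CPM in ST2KO, against 494.4, 453.1 and 482.3 CPM in ST2-low. It was 1.62-fold lower with no overlap (log2 fold change -0.69 ± 0.05; edgeR adjusted p = 2.43e-12). Canx, the membrane-bound lectin of the same calnexin cycle, fell by only 1.10-fold, a call lost in 5 of 18 alternatives, over which its adjusted p ran between 0.00116 and 0.297 by edgeR, limma or DESeq2. Dnajb9, a BiP co-chaperone, fell 1.42-fold, the growth factor-like ER protein gene Manf 1.34-fold, the nucleotide exchange factor gene Hyou1 1.32-fold, the co-chaperone gene Dnajb11 1.25-fold and Hsp90b1, the ER member of the Hsp90 family, 1.16-fold. Dnajc3, a co-chaperone that also inhibits PERK, went the other way, with 138.0, 139.6 and 145.8 CPM in ST2KO, against 99.2, 100.8 and 90.0 CPM in ST2-low. Every ST2KO sample was above every ST2-low sample, and Dnajc3 was 1.46-fold higher (log2 fold change 0.55 ± 0.06; edgeR adjusted p = 7.01e-10). Sdf2l1 and Creld2, both low in these cells, did not pass, at 6.60 ± 1.15 and 12.7 ± 2.19 CPM in ST2KO and 6.21 ± 0.65 and 13.2 ± 1.88 CPM in ST2-low.

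The disulfide enzymes divided by gene. Of 6, 4 fell, 0 rose and 2 did not pass. Ero1lb, an oxidase that recharges protein disulfide isomerases, had 30.9, 28.9 and 28.0 CPM in ST2KO, against 54.7, 56.5 and 56.3 CPM in ST2-low. The ST2KO samples were all lower, by 1.90-fold (log2 fold change -0.92 ± 0.07; edgeR adjusted p = 4.93e-13). Its paralog Ero1l did not pass, at 32.8 ± 1.04 CPM in ST2KO and 36.4 ± 2.36 CPM in ST2-low, although 7 of 18 alternatives called it lower (edgeR adjusted p = 0.0693, and 0.0244 to 0.33 over the alternatives). The protein disulfide isomerase genes Pdia6, P4hb and Pdia3 fell by 1.24-fold, 1.14-fold and 1.12-fold, with overlapping groups for Pdia3. Pdia3 lost its call in 4 alternatives and P4hb in 1 (highest adjusted p 0.176 and 0.0624). Pdia4 stood at 90.5 ± 4.27 CPM in ST2KO and 92.8 ± 5.20 CPM in ST2-low and did not pass.

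Among 9 genes of ERAD, 5 fell, 2 rose and 2 did not pass, and the partners of 1 complex moved apart. Syvn1, the membrane ubiquitin ligase also called HRD1, had 67.9, 57.8 and 68.7 CPM in ST2KO, against 104.8, 111.2 and 110.7 CPM in ST2-low. It was 1.68-fold lower with no overlap (log2 fold change -0.75 ± 0.07; edgeR adjusted p = 3.89e-11). Sel1l, the adaptor that holds substrates to that ligase, had 104.2, 106.3 and 105.6 CPM in ST2KO, against 71.1, 74.6 and 67.3 CPM in ST2-low. The groups did not overlap in the opposite direction, with Sel1l 1.48-fold higher (log2 fold change 0.57 ± 0.06; edgeR adjusted p = 3.69e-10). Derl3 fell 2.37-fold (log2 fold change -1.25 ± 0.38; edgeR adjusted p = 0.00522) on only 27, 11 and 7 counts in ST2KO, against 32, 18 and 31 counts in ST2-low. In CPM these were 0.586, 0.643 and 0.573 in ST2KO, against 1.73, 0.993 and 1.56 in ST2-low, without overlap. The derlin gene Derl1 fell 1.31-fold, Edem3 1.26-fold and Herpud1, which helps assemble the ligase complex, 1.18-fold. Edem2 rose 1.37-fold, whereas Edem1 stood at 402.6 ± 7.02 CPM in ST2KO and 394.2 ± 10.3 CPM in ST2-low and Derl2 at 26.2 ± 1.07 and 26.1 ± 1.85 CPM, without passing.

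Of 7 translocation and transport genes, 5 fell, 0 rose and 2 did not pass. Ssr3, Ssr1 and Ssr2 encode subunits of the translocon-associated complex, which helps nascent chains into the ER, and they were lower by 1.46-fold, 1.43-fold and 1.20-fold. Ssr3 had 110.8, 111.5 and 114.0 CPM in ST2KO, against 168.6, 165.0 and 156.6 CPM in ST2-low, with all ST2KO samples lower. The call of Ssr2 was lost with upper-quartile scaling or without ST2-low replicate 1 (adjusted p between 0.00236 and 0.117 by edgeR, limma or DESeq2). Sec61a1, the channel subunit, was 1.32-fold lower, and Sec23b, of the COPII coat that buds vesicles from the ER, 1.20-fold lower. Sec61b, a small subunit of the channel, was at 19.5 ± 2.79 CPM in ST2KO and 17.2 ± 1.82 CPM in ST2-low, and the COPII cargo adaptor gene Sec24d at 16.9 ± 1.32 and 18.2 ± 1.95 CPM. Neither passed.

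**Figure D3:**
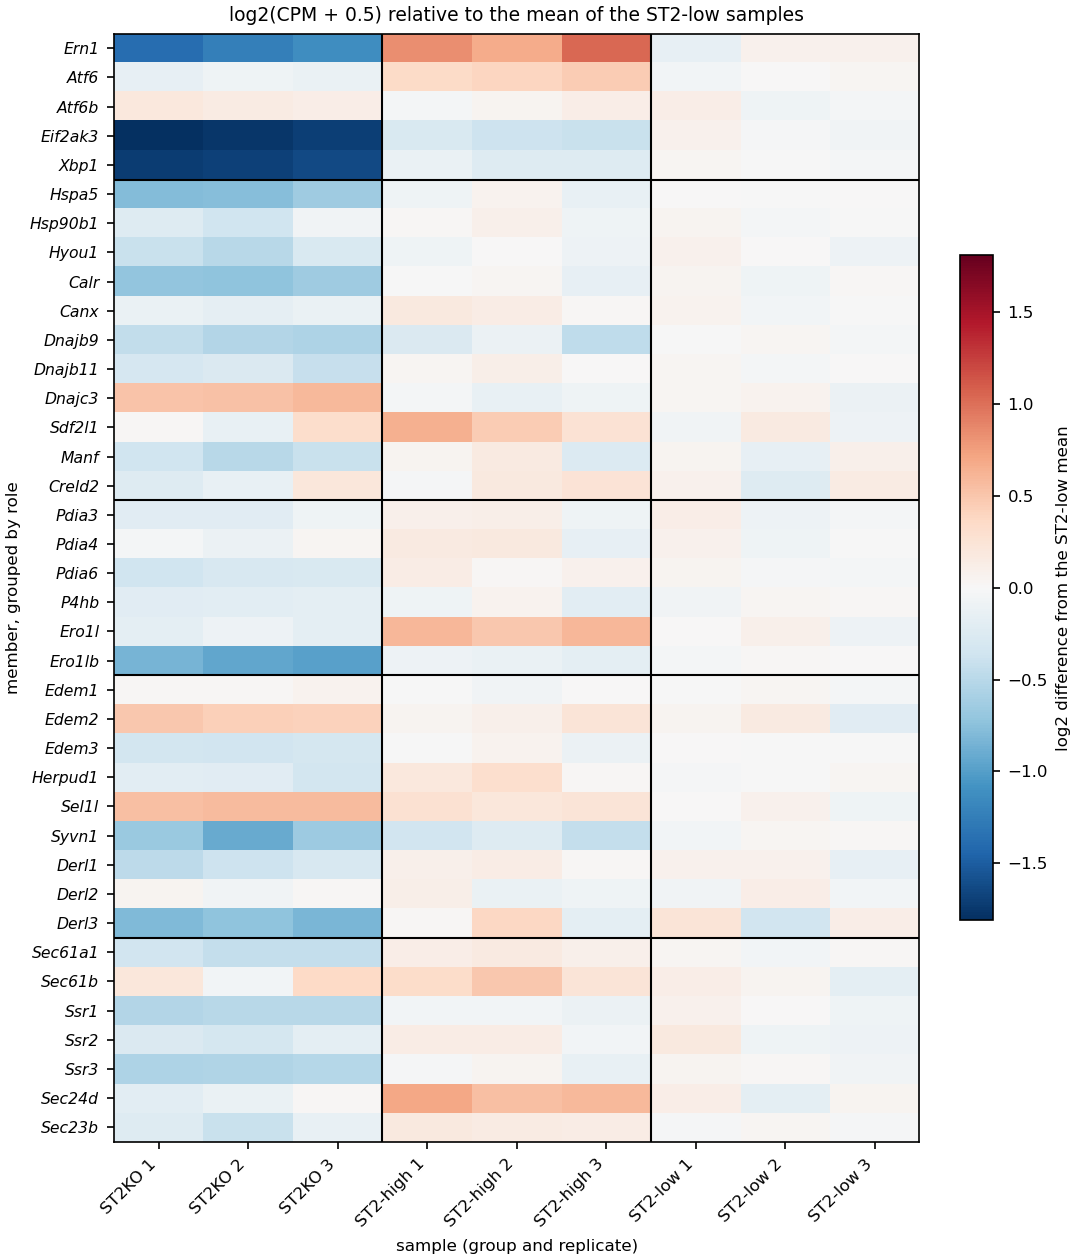
Each member in each sample as log2(CPM + 0.5) minus the mean of the ST2-low samples, with ST2KO, ST2-high and ST2-low from left to right and roles separated by lines. The ST2KO columns range from -1.81 to 0.59, the ST2-high columns from -0.46 to 1.04, and Dnajc3, Sel1l and Edem2 are among the rows above 0 (red) in all 3 ST2KO columns.

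Set against ST2-high, the wild-type Tregs with the most Il1rl1, most members were lower in ST2KO, led by Ern1, Xbp1 and Eif2ak3. The ST2KO samples are those used above, so the values stand side by side with the earlier ones and are not a second test. Of the 38 members, 29 fell (76.3%), 3 rose (7.89%) and 6 did not pass, where 32.6% of all tested genes fell and 31.9% rose. In either direction 84.2% of the members passed, against 64.5% of all genes. With upper-quartile scaling 27 members fell and 5 rose, where 3443 of 12219 genes fell and 4582 rose. The median log2 fold change was -0.40 over the members and 0.02 over all genes. Without ST2-high replicate 3, which stood apart, 31 members fell and 3 rose, where 4178 of 12426 genes fell and 3597 rose. Without overlap between the groups, 24 of the 38 members were lower and 5 of the 38 higher, against 33.3% and 33.5% of all genes. Lower by 2-fold or more were 4 of the 38 members (Ern1, Xbp1, Eif2ak3 and Derl3), where 1082 of 12219 genes were (8.86%). By that much 0 members were higher, where 6.83% of all genes were.

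Ern1 showed the largest fall, with 14.4, 16.0 and 17.3 CPM in ST2KO, against 68.9, 61.2 and 79.0 CPM in ST2-high. No sample overlapped, and Ern1 was 4.46-fold lower (log2 fold change -2.16 ± 0.09; edgeR adjusted p = 1.47e-17). Xbp1 was 2.83-fold lower than in ST2-high, where it had 181.7, 167.8 and 168.0 CPM (log2 fold change -1.50 ± 0.05; edgeR adjusted p = 1.29e-20). Eif2ak3 was 2.68-fold lower than the 145.8, 136.4 and 133.2 CPM of ST2-high (log2 fold change -1.42 ± 0.06; edgeR adjusted p = 2.34e-19). All 3 had their ST2KO samples below every ST2-high sample. Atf6, which had not passed against ST2-low, was 1.43-fold lower than the 62.2, 63.8 and 67.2 CPM of ST2-high (log2 fold change -0.52 ± 0.06; edgeR adjusted p = 2.85e-08). Atf6b stood at 41.5 ± 1.08 CPM in ST2KO and 38.5 ± 1.95 CPM in ST2-high and did not pass. With upper-quartile scaling it was called higher (edgeR adjusted p = 0.0202).

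Most chaperones fell against ST2-high as well. Hspa5 was 1.61-fold lower than the 963.3, 1060 and 921.8 CPM of ST2-high (log2 fold change -0.69 ± 0.06; edgeR adjusted p = 3.68e-12), and Calr 1.58-fold lower than 474.3, 489.3 and 431.5 CPM (log2 fold change -0.66 ± 0.05; edgeR adjusted p = 7.02e-12). Neither gene overlapped between the groups. In all, 9 of 11 chaperones, lectins and co-chaperones fell, 1 rose and 1, Creld2, did not pass. Dnajc3 was again the riser, 1.54-fold above the 94.4, 87.9 and 91.5 CPM of ST2-high (log2 fold change 0.63 ± 0.06; edgeR adjusted p = 3.5e-11). Manf, Dnajb11, Hyou1, Canx, Dnajb9 and Hsp90b1 were between 1.34-fold and 1.18-fold lower, with overlapping groups for Dnajb9 and Hsp90b1. Sdf2l1, a component of the BiP chaperone complex, was 1.36-fold lower with overlapping groups, and its call was lost without ST2KO replicate 1, ST2KO replicate 2 or ST2-high replicate 1 (highest edgeR adjusted p 0.0998, lowest 0.0036 over all alternatives).

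Both oxidase genes were lower than in ST2-high. Ero1lb was 1.73-fold lower than the 52.4, 51.3 and 49.3 CPM of ST2-high (log2 fold change -0.79 ± 0.07; edgeR adjusted p = 1.49e-11). Ero1l had 32.2, 34.0 and 32.1 CPM in ST2KO, against 55.2, 51.0 and 55.5 CPM in ST2-high, a 1.65-fold difference without overlap (log2 fold change -0.72 ± 0.07; edgeR adjusted p = 3.38e-10). Of the other disulfide enzyme genes Pdia6, Pdia3 and P4hb fell by 1.32-fold, 1.16-fold and 1.10-fold, with overlapping groups for Pdia3 and P4hb. Pdia4 did not pass (edgeR adjusted p = 0.169) except without ST2-high replicate 3 (0.00093, and up to 0.714 over its alternatives). P4hb was the least stable call, lost in 10 of 18 alternatives (adjusted p 0.000693 to 0.432 by edgeR, limma or DESeq2), and Pdia3 was lost with upper-quartile scaling (0.0565, the highest over its alternatives).

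In ERAD, 5 of 9 genes fell, 2 rose and 2 did not pass. Derl3 was 2.54-fold lower, on 27, 11 and 7 counts in ST2KO and 41, 34 and 18 counts in ST2-high (log2 fold change -1.34 ± 0.37; edgeR adjusted p = 0.00249). Derl1, Herpud1, Syvn1 and Edem3 were between 1.38-fold and 1.25-fold lower. Sel1l and Edem2 rose by 1.26-fold each, and Edem1 and Derl2 did not pass. With upper-quartile scaling Edem1 was called higher (edgeR adjusted p = 0.0195). Among translocation and transport genes 6 of 7 fell and Sec61b did not pass. Sec24d had 15.7, 16.7 and 18.3 CPM in ST2KO, against 29.8, 26.5 and 27.6 CPM in ST2-high, a 1.68-fold difference with no overlap (log2 fold change -0.75 ± 0.10; edgeR adjusted p = 8.5e-08). Sec61a1, Ssr3, Ssr1, Sec23b and Ssr2 were between 1.44-fold and 1.27-fold lower.

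**Figure D4:**
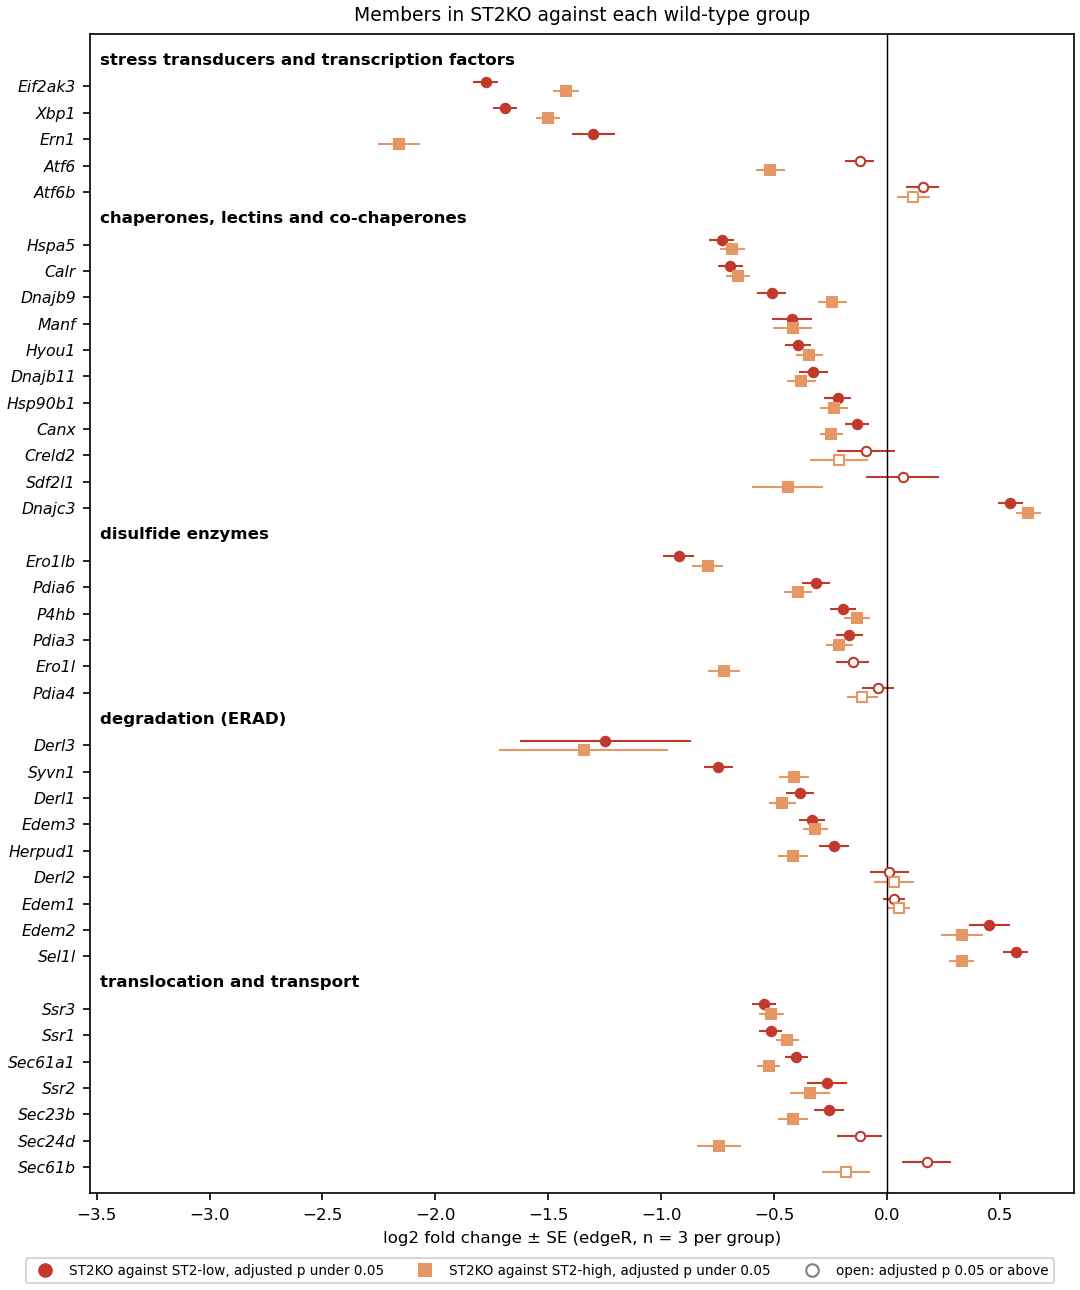
The log2 fold change of each member in ST2KO against ST2-low (circles) and ST2KO against ST2-high (squares), with the SE derived from the edgeR F statistic. Filled symbols passed at an adjusted p of 0.05. Eif2ak3, Xbp1 and Ern1 lie between -2.16 and -1.30, Derl3 lies at -1.25 (against ST2-low) and -1.34 (against ST2-high) with the widest error bars, and Dnajc3, Sel1l and Edem2 lie above 0 in both.

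The members with and without the promoter motifs were counted for both comparisons as a description. Of 12 members with ERSE or ERSE-II, 10 were lower, 1 was higher (Dnajc3) and 1 did not pass (Creld2) against ST2-low, and the same counts held against ST2-high. Of 19 matched members with none of the searched motifs, 10 were lower, 2 higher and 7 did not pass against ST2-low, and 12 were lower, 2 higher and 5 did not pass against ST2-high. Over all genes tested, 29.3% were lower and 33% higher against ST2-low, and 32.6% were lower and 31.9% higher against ST2-high. Both sets thus held a larger share of lower members than all genes, and the difference between the sets was not tested. The median log2 fold change against ST2-low was -0.32 in the first set and -0.17 in the second. The motif set holds Hspa5, Calr, Ero1lb and Syvn1, while Eif2ak3, Xbp1 and Ern1, with the largest falls, are among the 19.

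Between the wild-type groups, ST2-high and ST2-low, 12 of the 38 members differed. They went both ways, with Ern1, Sec24d, Ero1l and Atf6 among the higher and Eif2ak3 and Syvn1 among the lower in ST2-high. Of the 38, 8 rose (21.1%), 4 fell (10.5%) and 26 did not pass, where 15.3% of all tested genes rose and 10.8% fell. With all samples the share that fell thus lay near the background, and the share that rose lay a little above it. In either direction 31.6% of the members passed, against 26.1% of all genes. By 2-fold or more, 0 members were higher, where 3.16% of all genes were, and 0 were lower, where 0.368% were. Median log2 fold changes were 0.05 over the members and -0.002 over all genes. Without ST2-low replicate 3 only 5 of the 38 rose and 4 fell, where 1556 of 12389 genes rose and 991 fell. Without ST2-high replicate 3, which stood apart, 11 of the 38 rose and 4 fell, where 1868 of 12426 genes rose and 1398 fell. How far the risers stood above the background thus varied with single libraries. Without overlap between the groups, 9 of the 38 members were higher and 5 of the 38 lower, against 20.5% and 17.6% of all genes. Both lay near the background.

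The sensor genes split. Ern1 had 68.9, 61.2 and 79.0 CPM in ST2-high, against 34.5, 40.4 and 40.3 CPM in ST2-low. All ST2-high samples were higher, by 1.81-fold, the largest difference of any member here (log2 fold change 0.86 ± 0.09; edgeR adjusted p = 6.32e-09). Atf6 was 1.32-fold higher, at 62.2, 63.8 and 67.2 CPM in ST2-high, against 47.2, 49.2 and 50.2 CPM in ST2-low (log2 fold change 0.40 ± 0.06; edgeR adjusted p = 1.26e-05). By contrast Eif2ak3 was 1.28-fold lower, at 138.5 ± 6.57 CPM in ST2-high and 177.3 ± 8.83 CPM in ST2-low (SD, n = 3 each; log2 fold change -0.35 ± 0.05; edgeR adjusted p = 5.87e-06), and Xbp1 1.14-fold lower, at 172.5 ± 7.94 and 197.1 ± 4.26 CPM (log2 fold change -0.19 ± 0.05; edgeR adjusted p = 0.005). None of these 4 genes overlapped between the groups. Over the 3 groups Ern1 was lowest in ST2KO and highest in ST2-high, whereas Xbp1 and Eif2ak3 were lowest in ST2KO and highest in ST2-low.

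Further risers were spread over the roles. Sec24d had 29.8, 26.5 and 27.6 CPM in ST2-high, against 19.8, 16.0 and 18.7 CPM in ST2-low, and was 1.54-fold higher without overlap (log2 fold change 0.62 ± 0.10; edgeR adjusted p = 8.05e-06). Ero1l had 55.2, 51.0 and 55.5 CPM in ST2-high, against 36.6, 38.7 and 34.0 CPM in ST2-low, and was 1.48-fold higher without overlap (log2 fold change 0.57 ± 0.07; edgeR adjusted p = 2e-07). Its paralog Ero1lb did not pass, at 51.0 ± 1.54 CPM in ST2-high and 55.9 ± 1.02 CPM in ST2-low. Sdf2l1 had 9.97, 8.70 and 7.51 CPM in ST2-high, against 5.89, 6.95 and 5.78 CPM in ST2-low, and was 1.42-fold higher (log2 fold change 0.51 ± 0.16; edgeR adjusted p = 0.0167). Sec61b had 21.7, 24.1 and 20.2 CPM in ST2-high, against 18.6, 17.8 and 15.1 CPM in ST2-low, and was 1.28-fold higher (log2 fold change 0.36 ± 0.11; edgeR adjusted p = 0.0135). Both were without overlap, though by little. Sel1l had 85.7, 82.3 and 83.3 CPM in ST2-high, against 71.1, 74.6 and 67.3 CPM in ST2-low, and was 1.18-fold higher without overlap (log2 fold change 0.24 ± 0.06; edgeR adjusted p = 0.00167). Herpud1 was 1.14-fold higher with overlapping groups. Sdf2l1 and Sec61b lost their calls in 3 and 2 of the 18 alternatives, in each case on leaving out a wild-type replicate (adjusted p up to 0.139 and 0.108). Herpud1 lost its call in 9, where its adjusted p by edgeR, limma or DESeq2 ran between 0.00262 and 0.239. Syvn1 was 1.26-fold lower, with 85.8, 92.8 and 80.2 CPM in ST2-high, against 104.8, 111.2 and 110.7 CPM in ST2-low (log2 fold change -0.34 ± 0.06; edgeR adjusted p = 0.000177). Dnajb9 was 1.20-fold lower, with 121.8, 136.5 and 106.7 CPM in ST2-high, against 146.2, 149.9 and 143.7 CPM in ST2-low (log2 fold change -0.27 ± 0.06; edgeR adjusted p = 0.00192). Neither overlapped between the groups.

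The abundant chaperones did not pass in this comparison. Hspa5 averaged 981.6 ± 70.8 CPM in ST2-high and 1014 ± 8.22 CPM in ST2-low, Calr 465.0 ± 30.0 and 476.6 ± 21.3 CPM, and Hsp90b1 330.7 ± 18.6 and 327.0 ± 9.96 CPM (SD, n = 3 each). Every one of these overlapped between the groups. Canx passed only without ST2-high replicate 3 (edgeR adjusted p = 0.0182, with 0.405 as the highest over its alternatives and 0.111 with all samples). The 26 members that did not pass had log2 fold changes between -0.13 (Ero1lb) and 0.16 (Sec23b).

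**Figure D5:**
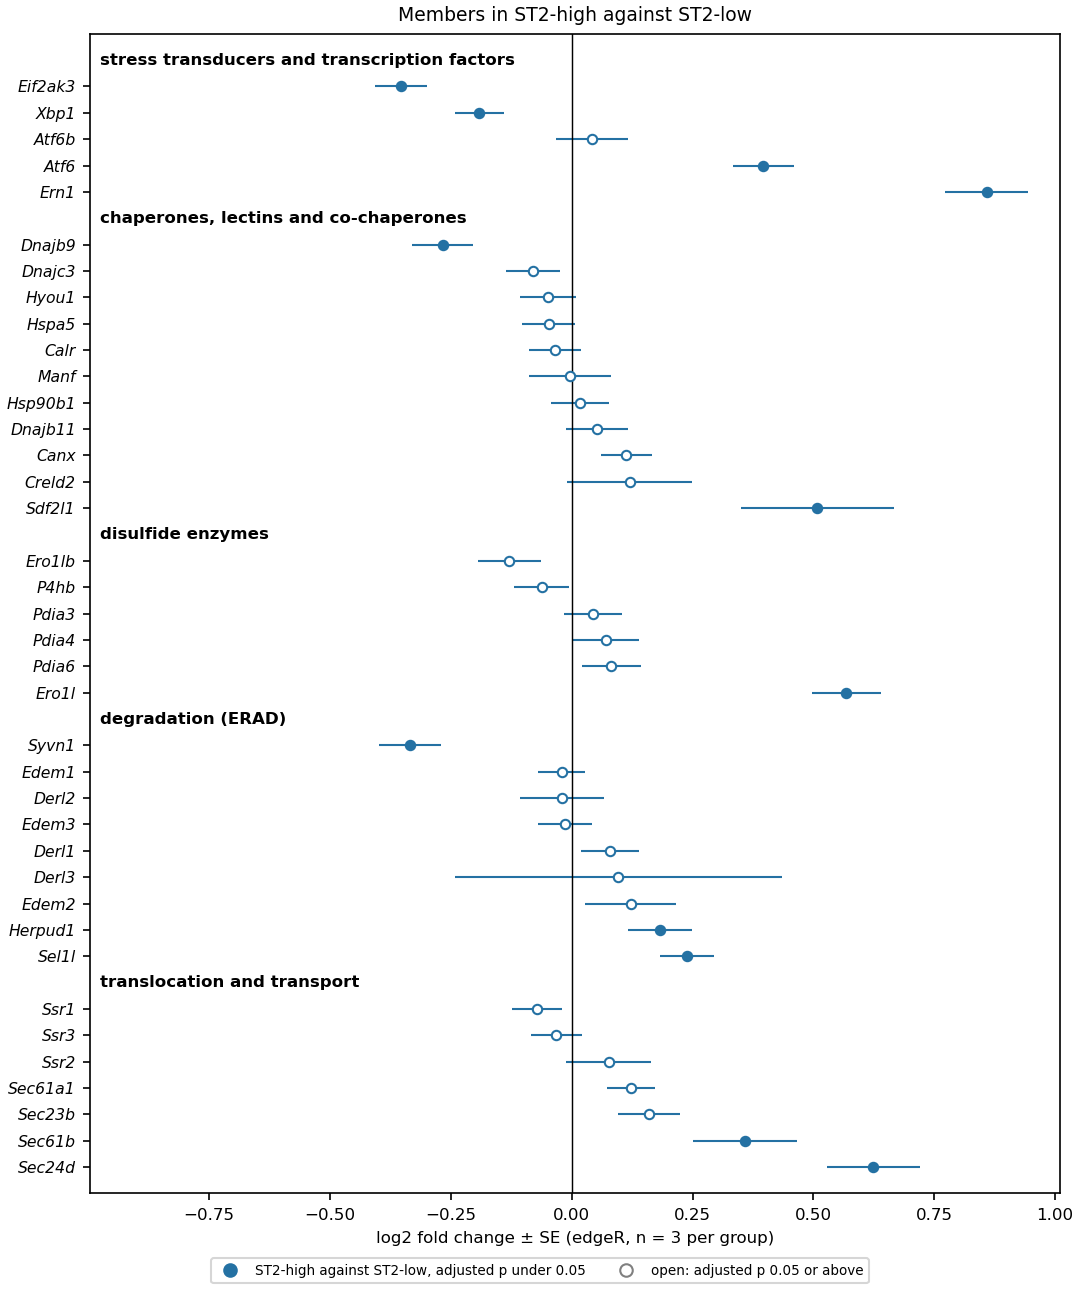
The log2 fold change of each member in ST2-high against ST2-low with the SE derived from the edgeR F statistic, grouped by role. Filled symbols passed at an adjusted p of 0.05. Ern1 lies farthest to the right at 0.86 and Eif2ak3 farthest to the left at -0.35, while most chaperones lie near 0 with open symbols.

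Other secretory pathway genes, 125 symbols on a separate list, were counted beside the members. Of these, 121 were matched and 114 tested. In ST2KO against ST2-low, 50 fell (43.9%, against 29.3% of all genes), 24 rose (21.1%, against 33%) and 40 did not pass, with a median log2 fold change of -0.14. Against ST2-high, 51 fell (44.7%, against 32.6%), 19 rose (16.7%, against 31.9%) and 44 did not pass, also with a median of -0.14. In either direction 64.9% passed against ST2-low and 61.4% against ST2-high, near the 62.3% and 64.5% of all genes. Further ERAD genes gave 14 lower and 4 higher of 22 in both comparisons, and further translocation, signal peptidase and glycosylation genes 13 lower and 2 higher of 30. Further chaperones, lectins and disulfide enzymes were mixed, with 7 lower and 9 higher of 29 against ST2-low and 10 lower and 7 higher against ST2-high. COPII genes were mixed too, with 7 lower and 6 higher of 19 against ST2-low and 9 lower and 4 higher against ST2-high.

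The smallest adjusted p in this list, in both comparisons with ST2KO, came from Sar1a, the GTPase that starts COPII budding, Man1b1, a mannosidase of ER quality control, and Serp1, a small protein of the translocon. Sar1a had 84.6, 78.7 and 83.0 CPM in ST2KO, against 166.2, 159.3 and 165.9 CPM in ST2-high and 152.4, 149.7 and 151.8 CPM in ST2-low. It was 1.99-fold lower than in ST2-high and 1.84-fold lower than in ST2-low (edgeR adjusted p = 1.16e-16 and 2.9e-15). Man1b1 fell by 2.04-fold and 1.77-fold, and Serp1 by 2.03-fold and 1.77-fold, against ST2-high and ST2-low in that order. Further sensors and the PERK arm had 9 lower and 3 higher of 14 against ST2-low and 5 lower and 2 higher against ST2-high. In ST2-high against ST2-low, 21 of the 114 rose (18.4%, against 15.3% of all genes), 8 fell (7.02%, against 10.8%) and 85 did not pass. There the smallest adjusted p came from Sec11c, a signal peptidase subunit (1.32-fold higher), the ER peroxiredoxin gene Prdx4 (1.56-fold) and Traf2, an adaptor of IRE1-alpha signalling (1.26-fold).

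Some members share exonic sequence with a neighbour in GENCODE M21, so their counts may hold reads of another gene. The overlap took 16.9% of the exon length of Hsp90b1, 14.7% of Sec61a1, 11.3% of Manf and 5.37% of Derl2, and under 3% of Syvn1, Pdia6 and Pdia3. Eif2ak3, Xbp1, Ern1, Hspa5 and Calr had none.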

How the data were processed

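The authors deposited 1 file per sample with whole-number counts per gene symbol and no normalization, as the values show (per the file headers, 1 column named for the sample). The sources used here do not give the aligner, build, annotation, counting tool, library kit or strand setting. Each file had 23420 rows; 27 whose symbols had become calendar dates (0.182% to 0.206% of counts) were left out.

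Groups came from the genotype labels. Counts were filtered with filterByExpr (minimum count 10, minimum total 15), leaving 12219 genes, and scaled with TMM. They were tested with edgeR 4.0.16 (R 4.3.3, robust glmQLFit on all 9 samples, no covariates) at an adjusted p of 0.05. Each SE of a log2 fold change is its absolute value divided by the square root of the F statistic. The fit was tested on simulated data, with changes placed in genes of all levels. Of 1.3-fold changes it called 51.67% in ST2KO against ST2-low, 53.57% in ST2KO against ST2-high and 59.65% in ST2-high against ST2-low. Of 2-fold changes it called 92.54%, 84.38% and 80% in the same order, and it called 8, 14 and 4 unchanged genes. The simulations called only 150, 146 and 145 genes in that order, where the data gave 7607, 7876 and 3189. With fewer genes called, the adjusted p asks for a smaller unadjusted p. The shares above therefore need not hold for the data. A member that did not pass may still differ by a small fold. Alternatives used limma 3.58.1, DESeq2 1.42.0, other scalings, filters and sample sets. The members and lists were chosen with earlier results of these data known. Values in every sample are given for Xbp1, Hspa5, Ern1, Atf6 and Eif2ak3 and for the 10 largest called changes of each comparison; from the list of other pathway genes the 3 with the smallest adjusted p are named. Lengths are merged GENCODE M21 exons, an approximation to what the authors counted over. No 2 libraries within a group were alike to within counting error.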

Additional observations from a re-analysis of the deposited data

How the results depend on the processing

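Direction and call were recomputed under 19 alternatives. Leaving aside the 1.5-fold minimum, 24 of the 28 members called in ST2KO against ST2-low, 29 of 32 in ST2KO against ST2-high and 9 of 12 in ST2-high against ST2-low kept their call in every one of these 18 that tested them. Derl3, counted in the first 2 of these numbers, was tested in 17, since the filter of 5 CPM in 3 samples removed it. Tested against a 1.5-fold limit, 7 members were lower and 0 higher in ST2KO against ST2-low, 6 lower and 0 higher in ST2KO against ST2-high, and 1 higher and 0 lower in ST2-high against ST2-low, and all genes called were 2111, 2378 and 347 instead of 7607, 7876 and 3189. This limit asks for more than a difference from 0. With upper-quartile scaling 5 members were higher in each comparison of ST2KO. All genes called higher then numbered 4648 against ST2-low and 4582 against ST2-high, instead of 4030 and 3892. The median log2 fold change over all genes became 0.121 and 0.099, instead of 0.051 and 0.02. Over the members it became -0.191 and -0.325, instead of -0.261 and -0.404. The part of this shift in the calls of the members was not tested. On leaving out single replicates, the members higher in ST2-high against ST2-low numbered 5 to 11, and all genes higher numbered 1521 to 1913.

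Members near 0 changed sign without being called under either setting. Derl2 in ST2KO against ST2-low turned to a log2 fold change of -0.027 with the size factors of DESeq2, -0.028 with its Wald test, -0.027 with 6 samples in the fit and to -0.005 with the filter of 5 CPM in 3 samples. Edem1 there turned to -0.006, -0.006 and -0.007 under the first 3 of these, and Pdia4 to 0.032 with upper-quartile scaling. Hsp90b1 in ST2-high against ST2-low turned to -0.007 with the size factors or the test of DESeq2 and to -0.014 with the 5 CPM filter. On leaving out single replicates, ranges of log2 fold change spanned 0 in ST2-high against ST2-low for Atf6b (-0.002 to 0.107), Calr (-0.073 to 0.014), Derl2 (-0.099 to 0.036), Derl3 (-0.109 to 0.254), Edem1 (-0.039 to 0.003), Edem3 (-0.055 to 0.029), Hsp90b1 (-0.02 to 0.057), Manf (-0.082 to 0.096), Pdia3 (-0.001 to 0.11) and Ssr3 (-0.075 to 0.012). They did so in ST2KO against ST2-low for Creld2 (-0.233 to 0.02), Derl2 (-0.023 to 0.042), Pdia4 (-0.106 to 0.002) and Sdf2l1 (-0.04 to 0.157), and in ST2KO against ST2-high for Derl2 (-0.018 to 0.081).

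Samples of the 3 groups share only replicate numbers. Deviations of same-numbered samples correlated between -0.063 and 0.098, so the numbers were not taken as pairs, and with the replicate block the members called stayed at 25 lower and 3 higher, 29 lower and 3 higher, and 4 lower and 8 higher in the comparisons in the order above. Depth limits Derl3 most, with at most 41 counts in any library.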
